A study of Rattus norvegicus with 18 samples.

Results

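The genes described here are 36 named genes of the cell cycle and of DNA replication, followed in rat primary hepatocytes treated with EMD, which the study describes as a dual agonist of the peroxisome proliferator activated receptors PPARα and PPARγ. A member was kept where a probe set of the array carried its symbol and no other. Where there were several, the brightest on average over the 18 arrays stood for the gene. This gave 35 members of 14217 genes with such a probe set. Rrm2, a subunit of ribonucleotide reductase, was left out because its 2 probe sets carry several symbols. The question put to these genes is whether a rodent peroxisome proliferator drives division in culture.

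Liver cells of Wistar rats were placed in culture and exposed to 30 µM EMD, to 100 µM EMD or to 0.1% DMSO, the vehicle, for 24 or 72 h. Each of the 6 groups had 3 arrays, and the rats' age was not given in the sources used here. Per the study's methods the cells of each animal received every treatment, and each time and dose had 3 biological replicates. The labels do not tie an array to an animal, so p-values here rest on the spread between these replicates, fitted without pairing. A fit with the replicate number as a block is given at the end as an alternative. The 2 doses at one time share their 3 vehicle arrays, and their values are therefore set side by side and not counted as separate support.

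In an adult liver nearly all hepatocytes rest outside the cell cycle, and peroxisome proliferators are known in rats for raising fatty acid oxidation and for enlarging the liver, in part through hepatocyte division. A resting cell that enters the cycle first makes D-type cyclins under growth factor signals, then releases E2F by way of cyclin E and Cdk2, copies its DNA with the Mcm helicase and the Pcna clamp, and divides under cyclin B, Cdk1, Plk1 and the Aurora kinases. Hepatocytes in plain culture seldom complete this programme unless a growth factor is added.

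All values are log2 expression estimates, so a difference of 1 is a doubling, and bright and dim probe sets are not set against each other as amounts of RNA. A member is called higher or lower where its adjusted p in limma, over 31042 probe sets, was under 0.05. Of the 35 members, 12 lay above the median probe set of the array on all 18 arrays, 13 lay below it on all 18, and 10 lay on both sides. The members that act in mitosis were the dim ones. Of the 6 mitotic cyclins and kinases 0 were above the array median throughout and 5 were below it throughout, and of the 9 chromosome, checkpoint and spindle genes 0 were above and 6 below. Differences between dim probe sets are compressed in such data, and these arrays give no detection call.

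Known PPARα targets rose. All 5 PPARα target genes that could be measured, of 8 listed, were higher at both doses and both times, with a median rise of 6.03 on the log2 scale at 30 µM and 24 h and of 4.40 at 100 µM and 72 h. Of the 11 hepatocyte markers measured, 0 lay below the array median on all 18 arrays. Their summed level on the log2 scale at 24 h was 16.55 to 16.64 with DMSO, 16.41 to 16.52 with 30 µM and 16.32 to 16.47 with 100 µM. At 72 h it was 16.56 to 16.66 with DMSO, 16.15 to 16.23 with 30 µM and 16.09 to 16.19 with 100 µM. The summed level of 13 macrophage markers was 11.31 to 11.76 with DMSO against 10.57 to 10.89 with 30 µM and 10.60 to 10.90 with 100 µM at 24 h, and 10.60 to 11.32 against 9.85 to 10.23 and 9.84 to 9.93 at 72 h. The brightest markers weigh most in such a sum, and 1 of the 13 was called lower with either dose at 24 h and 2 at 72 h, with median changes of -0.26 to -0.18. Of 14 stellate cell and fibroblast markers 9, and of 10 endothelial markers 8, lay below the array median on all arrays. Over time in DMSO the sum of 6 cholangiocyte markers was 8.06 to 8.51 at 24 h and then 9.98 to 10.49, with Cd24 (4.92) and Epcam (1.81) called higher. The sum of the stellate markers was 9.06 to 10.14 and then 9.89 to 12.08, which overlap. Of these 14 markers 1, Tagln (2.38), was called higher and 1, Pdgfrb (-0.49), lower. Their median change was -0.05, as over all probe sets. Macrophages and stellate cells can divide or express Myc and cyclins, and the part of these cells in the results below was not tested. In such bulk samples fewer cells of a type and less RNA per cell cannot be told apart.

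Few members moved with EMD. At 24 h 1 member rose with 30 µM EMD and 1 fell, against 3.35% and 2.01% of all probe sets, and with 100 µM EMD 1 rose and 1 fell, against 3.06% and 2.95%. At 72 h 4 members rose and 2 fell with 30 µM EMD, against 7.88% of all probe sets higher and 9.22% lower, and 4 rose and 2 fell with 100 µM EMD, against 7.42% and 9.68%. As shares of the members these counts are 2.86% in each direction at 24 h, and 11.4% higher and 5.71% lower at 72 h, which lie near the shares over all probe sets. In all, 9 members were called in at least 1 of these 4 comparisons, 26 in none and 0 in all 4. The 9 were 3 of the 15 mitotic members and 6 of the other 20. Of all members 1, Cdk2, changed by more than 1 on the log2 scale.

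**Figure D1:**
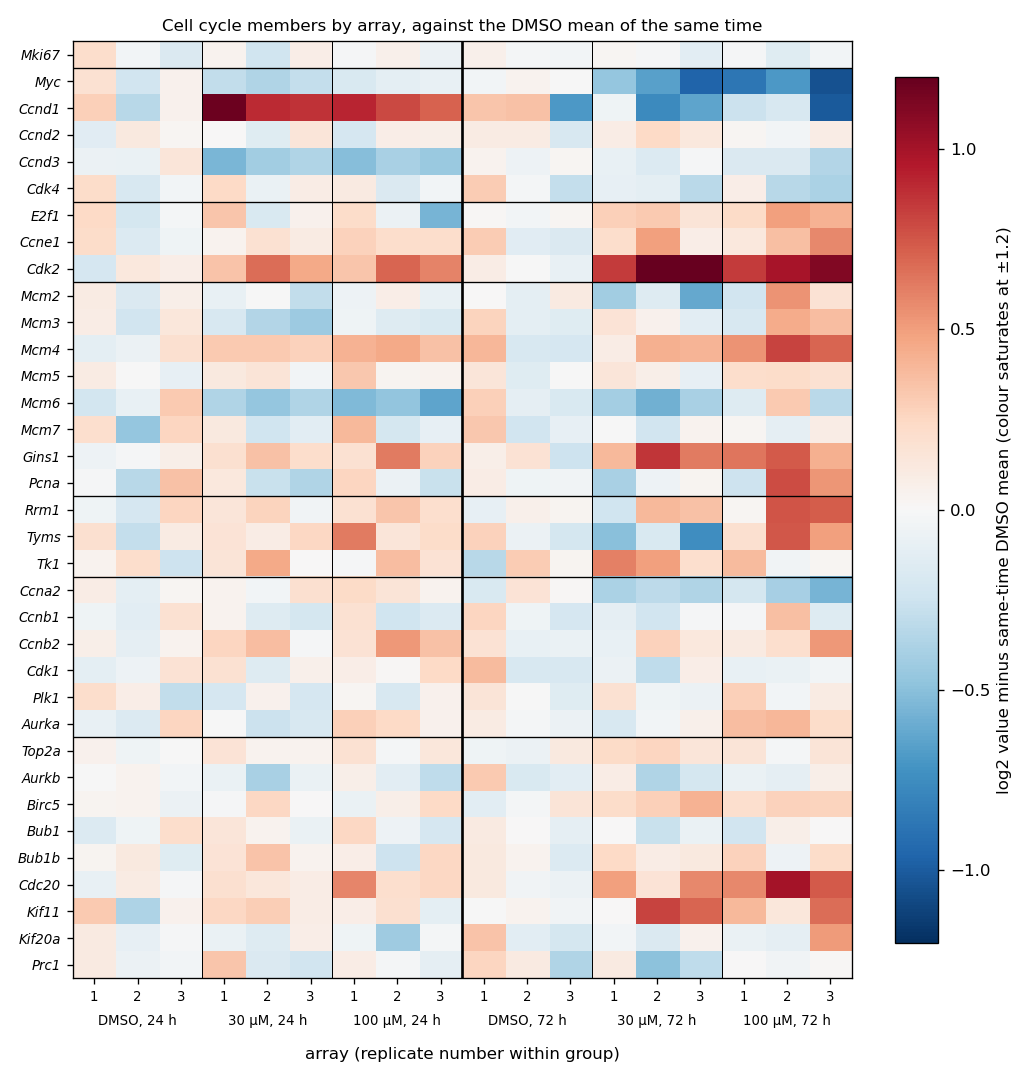
Each cell is the log2 value of a member (rows, ordered by role and separated by lines) on 1 array (columns, 3 per group) minus the mean of the 3 DMSO arrays of the same time, and the colour saturates at 1.2 in either direction. Cdk2 is red on all 6 EMD arrays at 72 h and Myc is blue on them, while the rows from Ccnb1 to Aurka and from Top2a to Prc1 are pale apart from Cdc20 and Kif11.

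Mki67 encodes Ki-67, the antigen used to mark dividing cells. With DMSO its log2 values were 3.28, 3.04 and 2.90 at 24 h and 3.11, 3.02 and 3.01 at 72 h. With 30 µM EMD they were 3.12, 2.84 and 3.15 at 24 h, then 3.07, 3.03 and 2.92 at 72 h. With 100 µM they were 3.05, 3.14 and 3.0035 at 24 h, then 3.04, 2.90 and 3.02 at 72 h. All 18 values lay below the array median and the groups overlapped throughout. The log2 change against DMSO at 24 h was -0.04 for 30 µM and -0.01 for 100 µM, and at 72 h -0.04 and -0.06, each with a standard error of 0.10 and none called. The upper 95% confidence limit was 0.21 or less in the 4 comparisons, so a larger rise of this probe set lies outside each interval. The probe set lay near the lowest value of the data, 2.39, where differences are compressed. Its narrow intervals therefore do not bound a change in Mki67 RNA.

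Cdk1, the kinase that cyclin B activates to start mitosis, read 3.86, 3.91 and 4.15 with DMSO at 24 h, 4.16, 3.82 and 4.03 with 30 µM and 4.06, 3.98 and 4.21 with 100 µM. At 72 h the log2 values were 4.28, 3.71 and 3.70 with DMSO, 3.83, 3.59 and 3.97 with 30 µM and 3.81, 3.82 and 3.87 with 100 µM. One vehicle array at 72 h, replicate 1, was the highest of all 18, and no group stood apart. The log2 changes were 0.03, 0.11, -0.10 and -0.07, with a standard error of 0.14, and the widest interval upwards ended at 0.42.

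Genes that act late in the cycle often carry a CCAAT box, bound by NF-Y, and a TTTGAA element, through which the DREAM and MuvB complexes repress them in resting cells and activate them at mitosis. The upstream stretches of 6 members are shown, those of Mki67 and of 5 of the 7 mitotic members that hold both sets of letters. They are read 5′ to 3′ up to the base before the annotated start, from RefSeq on the GRCr8 build, with TTTGAA and CCAAT on either strand in capitals. They cover chr1:199952594-199952793 on the minus strand for Mki67, chr20:19265183-19265292 on the plus strand for Cdk1, chr8:79981659-79981768 on the minus strand for Ccnb2, chr10:84473094-84473203 on the minus strand for Top2a, chr1:143659371-143659480 on the plus strand for Prc1 and chr5:137255800-137255909 on the minus strand for Cdc20.
Mki67: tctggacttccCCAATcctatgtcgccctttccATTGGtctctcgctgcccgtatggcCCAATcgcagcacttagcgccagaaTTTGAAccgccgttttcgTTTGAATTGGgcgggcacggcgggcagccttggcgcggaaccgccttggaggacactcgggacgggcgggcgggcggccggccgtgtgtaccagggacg
Cdk1: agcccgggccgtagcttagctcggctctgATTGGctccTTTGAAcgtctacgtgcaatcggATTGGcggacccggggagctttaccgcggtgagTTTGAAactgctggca
Ccnb2: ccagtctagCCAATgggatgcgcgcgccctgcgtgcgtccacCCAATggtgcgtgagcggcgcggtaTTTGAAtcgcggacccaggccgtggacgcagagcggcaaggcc
Top2a: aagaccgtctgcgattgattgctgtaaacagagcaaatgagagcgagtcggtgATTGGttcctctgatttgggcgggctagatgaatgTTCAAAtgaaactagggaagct
Prc1: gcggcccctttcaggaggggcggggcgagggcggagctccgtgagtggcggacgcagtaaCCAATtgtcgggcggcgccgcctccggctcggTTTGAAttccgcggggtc
Cdc20: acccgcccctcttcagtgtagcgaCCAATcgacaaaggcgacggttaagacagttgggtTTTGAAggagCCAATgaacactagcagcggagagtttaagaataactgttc

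Of the 36 listed members 28 had an entry among these promoters, which are windows of 1 length around the annotated start. Among the 13 mitotic members with an entry, 8 held TTTGAA on either strand (61.5%), against 18.3% of 33465 promoters of the same length, and 10 held CCAAT (76.9%), against 37.5%. Both stood in 7 of the 13 (53.8%), against 7.41% of all promoters. Ccnb1, Kif11 and Kif20a held CCAAT without TTTGAA, Bub1b held TTTGAA without CCAAT, and Aurka and Bub1 held neither. In Mki67 a TTTGAA and a CCAAT on the other strand overlap by 1 base. The match is of letters only and was not tested for binding. Of the 6 members printed, Cdc20 was called with EMD, and the largest change of the other 5 in any of the 4 comparisons was 0.35 on the log2 scale. Of the mitotic members that hold both but are not printed, Birc5 was called higher with 30 µM at 72 h (0.31) and Plk1 was not called with EMD.

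The 15 mitotic members together gave 0 calls at 24 h, 2 higher and 1 lower at 72 h with 30 µM EMD, and 1 higher and 1 lower at 72 h with 100 µM EMD. The shares at 72 h, 20% and 13.3%, lie near the 17.1% of all probe sets called with either dose. At 24 h 5.36% and 6.01% of all probe sets were called. Their median log2 change at 24 h was 0.04 with 30 µM and 0.05 with 100 µM, and at 72 h -0.05 and 0.11, beside a median over all probe sets of -0.03, -0.01, 0.01 and 0.02. Changes of single members ran from -0.18 to 0.35 at 24 h and from -0.39 to 0.77 at 72 h. The highest upper confidence limit of any of the 15 was 0.63 at 24 h and 1.04 at 72 h, the latter for Cdc20. Ccnb1 and Ccnb2, the B-type cyclins, Plk1 and Aurka, kinases of mitotic entry and the spindle poles, and Top2a, which untangles sister DNA, were called in none of the 4 comparisons.

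Cdc20 activates the anaphase promoting complex. Its log2 values at 72 h were 4.98, 4.82 and 4.80 with DMSO, 5.36, 5.03 and 5.44 with 30 µM and 5.45, 5.87 and 5.60 with 100 µM, and at 24 h they were 4.94, 5.14 and 5.03, then 5.23, 5.18 and 5.12, then 5.62, 5.24 and 5.29. Every EMD array at 72 h lay above every vehicle array. The rise at 72 h was 0.41 ± 0.13 (SE) with 30 µM (limma, adjusted p = 0.034) and 0.77 ± 0.13 with 100 µM (adjusted p = 0.00040). The first of these calls was lost without vehicle replicate 2 or 3 or without replicate 1 or 3 of the dose (limma, adjusted p 0.098 to 0.15), and the second passed whichever array was left out. The 4 other probe sets of Cdc20 were not called and changed by -0.28 to 0.25 at 72 h, and with the mean of all 5 probe sets neither call passed (limma, adjusted p 0.35 and 0.065).

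Birc5, or survivin, a part of the chromosomal passenger complex and an inhibitor of apoptosis, read 4.48, 4.58 and 4.76 with DMSO at 72 h, 4.83, 4.89 and 5.03 with 30 µM and 4.81, 4.89 and 4.88 with 100 µM. The groups did not overlap but the distance was short. The log2 rise was 0.31 ± 0.10 with 30 µM (limma, adjusted p = 0.046) and 0.25 ± 0.10 with 100 µM (adjusted p = 0.11). The call was lost without any 1 of the 6 arrays other than vehicle replicate 3 (limma, adjusted p 0.050 to 0.19). At 24 h the values with DMSO were 4.80, 4.81 and 4.70, and those with EMD ran from 4.69 to 5.02.

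Ccna2, cyclin A, which serves in S phase and in mitotic entry, went the other way. At 72 h it read 3.32, 3.67 and 3.52 with DMSO, 3.12, 3.18 and 3.14 with 30 µM and 3.29, 3.10 and 2.94 with 100 µM, and at 24 h its log2 values were 3.14, 2.93 and 3.08 with DMSO and 3.02 to 3.28 with EMD. Every EMD array at 72 h lay below the vehicle arrays and near the level at 24 h. The fall at 72 h was -0.35 ± 0.11 with 30 µM (limma, adjusted p = 0.029) and -0.39 ± 0.11 with 100 µM (adjusted p = 0.016). With 30 µM the call held only without vehicle replicate 1 and was lost without any other 1 of the 6 arrays (limma, adjusted p 0.060 to 0.14), and with 100 µM it was lost without vehicle replicate 2 or replicate 3 of the dose (adjusted p 0.091 and 0.098). Neither call passed when only the arrays compared were fitted (limma, adjusted p 0.064 and 0.11). The probe set was dim, below the array median on every array.

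**Figure D2:**
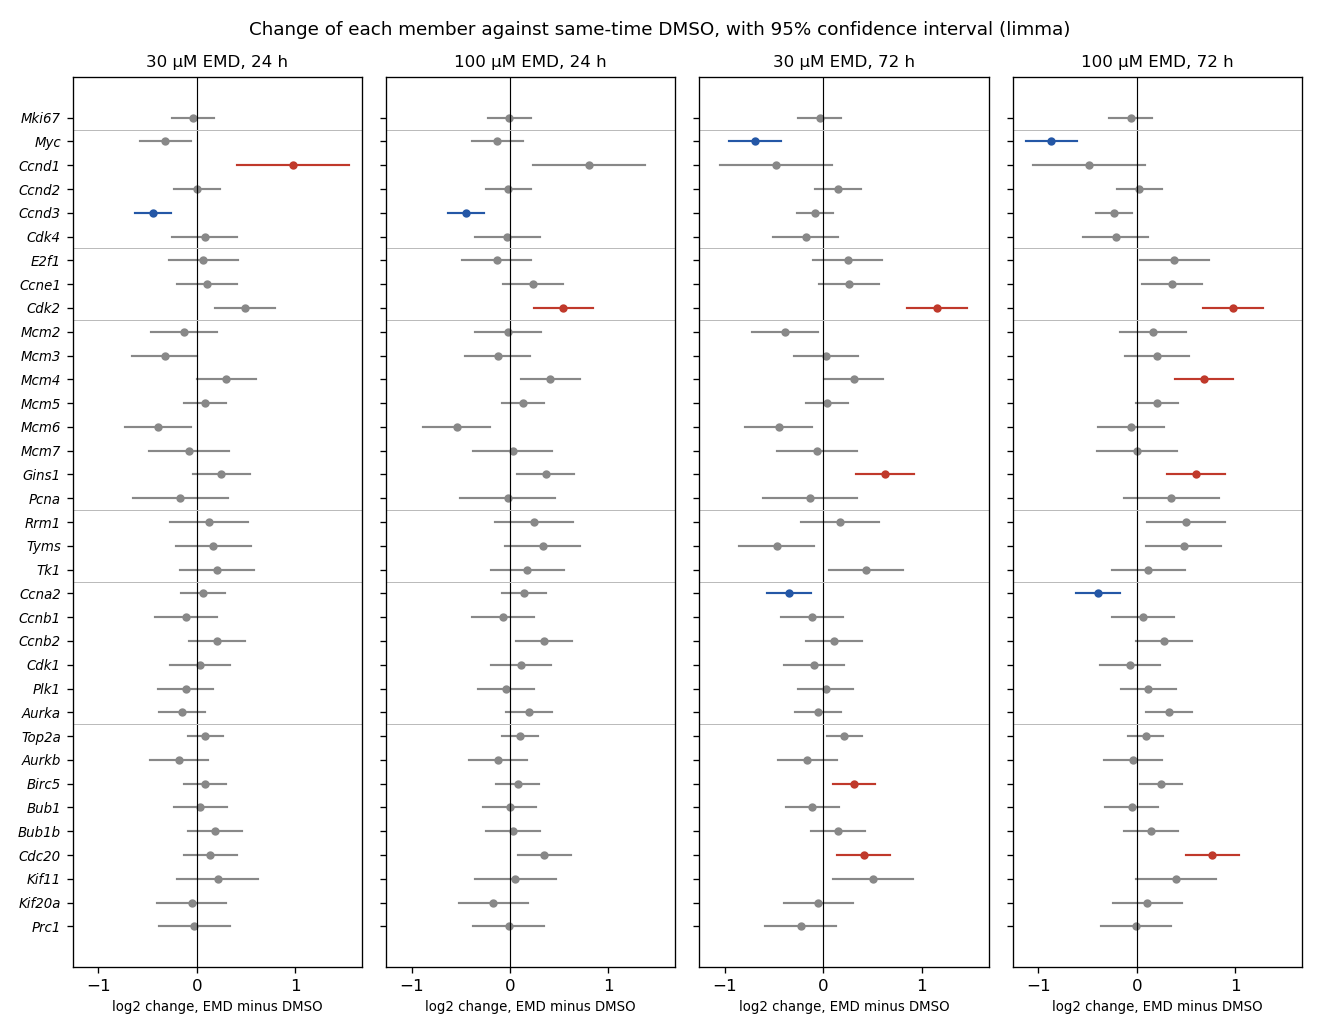
Points are the log2 change of each of the 35 members against DMSO of the same time in the 4 comparisons, bars are 95% confidence intervals from limma, and red or blue marks members called higher or lower after adjustment over all probe sets. The intervals of Mki67 and Cdk1 span 0 in every panel, while Cdk2 and Myc at 72 h lie far from it on opposite sides.

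The clearest rise was that of Cdk2, the kinase that cyclin E and cyclin A activate for the start of S phase. At 24 h its log2 values were 5.68, 6.01 and 5.97 with DMSO, 6.23, 6.56 and 6.35 with 30 µM and 6.23, 6.59 and 6.48 with 100 µM. At 72 h they were 5.97, 5.88 and 5.79 with DMSO, 6.72, 7.30 and 7.08 with 30 µM and 6.71, 6.86 and 6.98 with 100 µM. All 12 EMD arrays lay above the vehicle arrays of their time. At 72 h the rise was 1.15 ± 0.14 with 30 µM, or 2.23-fold (limma, adjusted p = 2.0e-05), and 0.98 ± 0.14 with 100 µM, or 1.97-fold (adjusted p = 0.00012), and both calls passed whichever array was left out. At 24 h it was 0.49 ± 0.14 (limma, adjusted p = 0.057) and 0.54 ± 0.14 (adjusted p = 0.031), and the latter call was lost without vehicle replicate 1 or 3 or replicate 2 or 3 of the dose (adjusted p 0.050 to 0.15). With the replicate block, given at the end, the rise with 30 µM at 24 h was called too.

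The other probe set of Cdk2 rose by 1.251 and 1.31 at 72 h (limma, adjusted p 7.4e-06 and 5.5e-06), and at 24 h changed by 0.45 and 0.41 without a call. Of the cyclins that activate Cdk2, the dim Ccna2 was called lower at 72 h, with the limits given above, and Ccne1, or cyclin E1, was not called. Ccne1 changed at 24 h by 0.11 and 0.23, and at 72 h by 0.26 and 0.35, and E2f1, which switches on S phase genes, by 0.07, -0.13, 0.25 and 0.38, with limma's adjusted p of 0.11 or more. With E2f1 the EMD arrays at 72 h, 5.55 to 5.88, nonetheless all lay above the vehicle arrays, 5.36 to 5.41. A CCAAT of the Cdk2 promoter stood at position -117 from the start, and neither TTTGAA nor the E2F letters were found in its window.

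The D-type cyclins take the growth signal to Cdk4. Ccnd1, cyclin D1, whose rise is a classical sign that a hepatocyte has left the resting state, read 5.98, 5.36 and 5.74 with DMSO at 24 h, 6.87, 6.59 and 6.56 with 30 µM and 6.61, 6.48 and 6.40 with 100 µM. At 72 h the log2 values were 6.50, 6.52 and 5.47 with DMSO, 6.12, 5.40 and 5.53 with 30 µM and 5.91, 5.97 and 5.16 with 100 µM. At 24 h the EMD arrays were all above the vehicle arrays, and at 72 h the groups overlapped, with vehicle replicate 3 far below the other vehicle arrays. Taken by replicate number, every 100 µM array at 72 h lay below its vehicle array, and with 30 µM all but replicate 3 did. The log2 change at 24 h was 0.98 ± 0.27 with 30 µM (limma, adjusted p = 0.041) and 0.80 ± 0.27 with 100 µM (adjusted p = 0.10), and at 72 h it was -0.48 and -0.49 (adjusted p = 0.27 and 0.26). With the replicate block, given at the end, the rise with 100 µM at 24 h was called too.

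The call for Ccnd1 was lost without any 1 of the 6 arrays other than vehicle replicate 1 (limma, adjusted p 0.085 to 0.16). The 2 further probe sets of Ccnd1 gave 0.93 and 1.11 with 30 µM and 0.84 and 0.99 with 100 µM at 24 h, and between -0.33 and -0.85 at 72 h, none of them called with EMD, and 1 of them rose over time in DMSO by 0.91 (limma, adjusted p = 0.023). All 3 probe sets of this gene thus had the same sign in each of the 4 comparisons. The change of the effect from 24 to 72 h was -1.46 ± 0.38 for 30 µM and -1.29 ± 0.38 for 100 µM, with limma's adjusted p of 0.085 and 0.15. In the main fit 0 members were called in either of these tests, against 0.941% and 0.693% of all probe sets. With the replicate block, given at the end, Ccnd1 was called in both, Cdk2 with 30 µM and Myc with 100 µM.

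Ccnd3, cyclin D3, read 7.81, 7.80 and 8.03 with DMSO at 24 h, 7.33, 7.46 and 7.52 with 30 µM and 7.37, 7.49 and 7.43 with 100 µM. All 6 EMD arrays were below the vehicle arrays. It fell by 0.44 on the log2 scale with 30 µM (SE 0.09, limma, adjusted p = 0.0039) and by 0.45 with 100 µM (SE 0.09, adjusted p = 0.0034) and both calls passed whichever array was left out, the first not when only the 6 arrays compared were fitted (adjusted p = 0.052). At 72 h the values were 7.88, 7.77 and 7.86 with DMSO, 7.75, 7.67 and 7.82 with 30 µM and 7.66, 7.66 and 7.48 with 100 µM, with changes of -0.09 and -0.23 and no call. Ccnd2 changed by -0.02 to 0.15 in the 4 comparisons, and Cdk4 by -0.21 to 0.08.

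Myc, the transcription factor that growth signals induce first, was among the brightest members and went down. At 72 h its log2 values were 9.97, 10.05 and 10.00 with DMSO, 9.54, 9.36 and 9.04 with 30 µM and 9.14, 9.31 and 8.96 with 100 µM. The 3 vehicle arrays lay close together and all EMD arrays were below them. The fall was -0.69 ± 0.12 with 30 µM (limma, adjusted p = 0.00069) and -0.87 ± 0.12 with 100 µM (adjusted p = 9.8e-05), and neither call was lost when any 1 array was left out. At 24 h the values were 10.17, 9.75 and 10.03 with DMSO, 9.69, 9.62 and 9.70 with 30 µM and 9.80, 9.87 and 9.90 with 100 µM. Those changes, -0.32 and -0.13, did not pass (limma, adjusted p = 0.18 and 0.70).

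**Figure D3:**
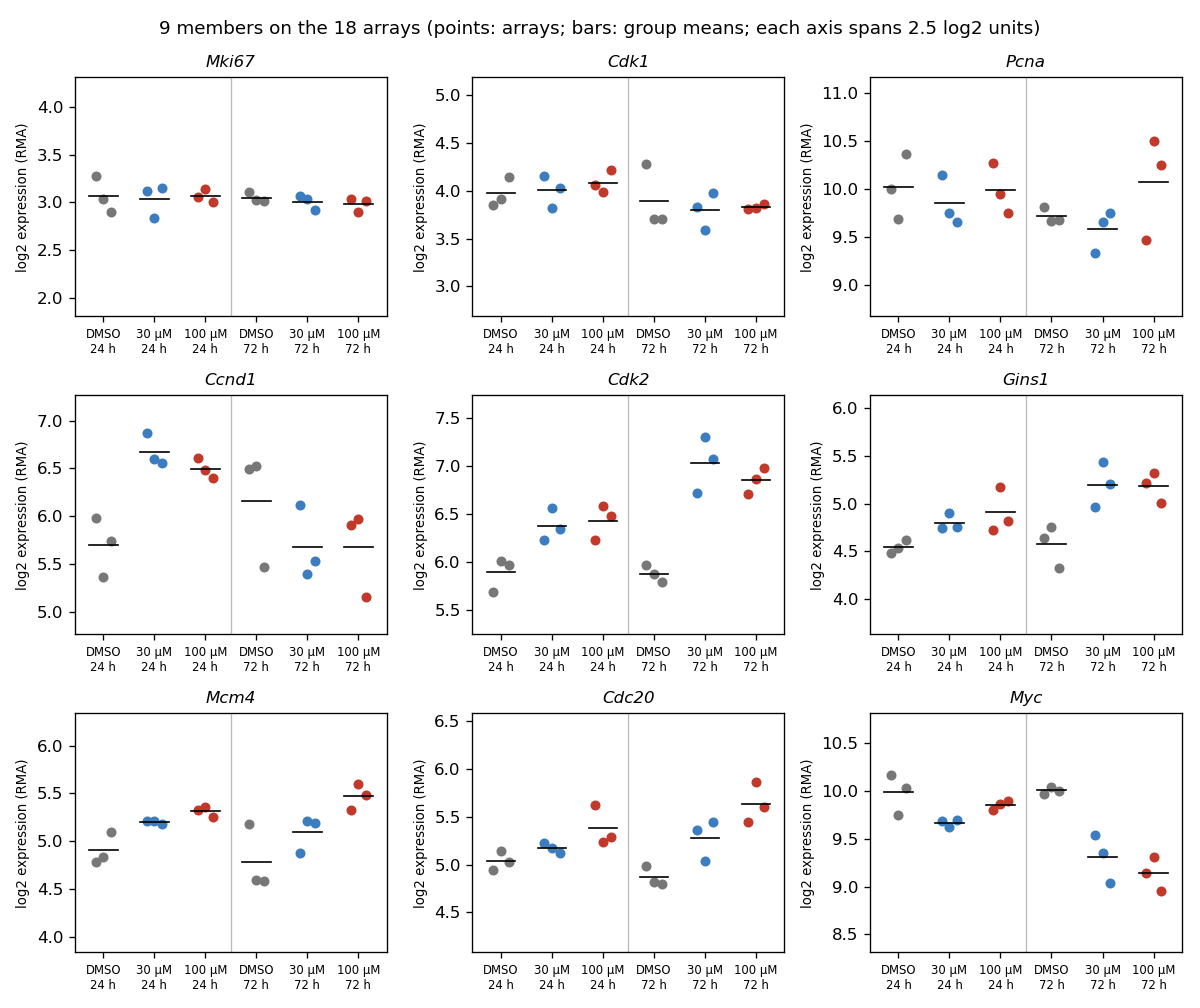
Points are the log2 values of 9 members on the 18 arrays, grey for DMSO, blue for 30 µM and red for 100 µM EMD, with a bar at each group mean, and every panel spans 2.5 log2 units. Mki67 and Cdk1 stay level, Cdk2 and Gins1 are higher with EMD at 72 h, Myc is lower, and Ccnd1 is above DMSO at 24 h but not at 72 h.

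Of the 8 members of the replicative helicase and clamp, 0 were called at 24 h, 1 rose with 30 µM and 2 rose with 100 µM at 72 h, and 0 fell in these 4 comparisons. These shares at 72 h, 12.5% and 25% of only 8 genes, stood beside 7.88% and 7.42% of all probe sets higher. Their median log2 change at 72 h was -0.02 with 30 µM and 0.21 with 100 µM. Gins1, a subunit of the GINS complex that travels with the Mcm helicase, read 4.65, 4.75 and 4.33 with DMSO at 72 h, 4.96, 5.43 and 5.20 with 30 µM and 5.22, 5.32 and 5.01 with 100 µM, and at 24 h it read 4.49, 4.54 and 4.62, then 4.74, 4.90 and 4.76, then 4.73, 5.17 and 4.82. The EMD arrays were above the vehicle arrays at both times. The log2 change at 72 h was 0.62 ± 0.14 with 30 µM (limma, adjusted p = 0.0044) and 0.60 ± 0.14 with 100 µM (adjusted p = 0.0056), and at 24 h it was 0.25 and 0.36 without a call. Both calls at 72 h passed whichever array was left out.

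Mcm4, a subunit of the helicase, read 5.18, 4.59 and 4.58 with DMSO at 72 h, 4.88, 5.21 and 5.19 with 30 µM and 5.33, 5.60 and 5.48 with 100 µM. At 24 h the log2 values were 4.79, 4.83 and 5.09, then 5.21, 5.22 and 5.18, then 5.32, 5.36 and 5.25. Vehicle replicate 1 at 72 h stood well above the other vehicle arrays and overlapped with 30 µM. The rise with 100 µM at 72 h was 0.68 ± 0.14 (limma, adjusted p = 0.0025), which passed whichever array was left out, and the changes of 0.30 and 0.41 at 24 h and of 0.31 with 30 µM at 72 h were not called. Mcm6, another subunit, had changes of -0.39 and -0.54 at 24 h and of -0.46 and -0.06 at 72 h (limma, adjusted p 0.21, 0.056, 0.061 and 0.87), and none of these was called.

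Genes that serve S phase often carry E2F sites. TTTCCCGC or TTTGGCGC, on either strand, stood in 6 of the 14 members of the growth signal, G1 to S, replication and nucleotide groups that had a promoter entry (42.9%), in 0 of the 13 mitotic members and in 1.45% of 33465 promoters. The last 60 bases before the start are given for Gins1, which was called with EMD at 72 h, and for Mcm5, which was called in none of the comparisons, with the E2F letters and CCAAT in capitals. They lie on the plus strand at chr3:160184860-160184919 and chr19:13488753-13488812 of GRCr8, again from RefSeq.
Gins1: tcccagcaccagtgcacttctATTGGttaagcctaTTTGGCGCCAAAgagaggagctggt
Mcm5: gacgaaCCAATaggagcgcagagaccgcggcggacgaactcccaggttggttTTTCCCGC
In Gins1 the 8 letters match on both strands and the matches overlap by 4 bases. Both promoters hold the same kinds of letters, while the log2 change with EMD at 72 h was 0.62 and 0.60 for Gins1 and 0.04 and 0.20 for Mcm5.

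Pcna, the sliding clamp of the replication fork, read 10.00, 9.69 and 10.37 with DMSO at 24 h, 10.14, 9.75 and 9.66 with 30 µM and 10.27, 9.95 and 9.75 with 100 µM. At 72 h the values were 9.81, 9.67 and 9.68 with DMSO, 9.34, 9.66 and 9.75 with 30 µM and 9.47, 10.50 and 10.25 with 100 µM. At 100 µM and 72 h replicate 1 lay below every vehicle array and replicates 2 and 3 lay above them all. The log2 changes were -0.17, -0.03, -0.14 and 0.35, with a standard error of 0.23 and limma's adjusted p of 0.345 or more.

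The same array stood apart for further replication genes. Rrm1, the large subunit of ribonucleotide reductase, read 6.25, 6.41 and 6.38 with DMSO and 6.37, 7.10 and 7.08 with 100 µM at 72 h (change 0.50 ± 0.19, limma's adjusted p = 0.079). Counted over the 11 members of replication and nucleotide supply, 7 lay above the vehicle mean on replicate 1 of 100 µM at 72 h, with a median deviation of 0.02 on the log2 scale, against 9 on replicate 2 and 10 on replicate 3, with medians of 0.54 and 0.37. The share of all probe sets above the vehicle mean was alike on the 3 arrays, at 52.8%, 51.4% and 54.5%. For the 15 mitotic members the counts were 9, 7 and 12.

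Without replicate 1 of 100 µM at 72 h, 11 members were called in that comparison, 9 higher and 2 lower, against 9.11% and 10.5% of all probe sets. The members that joined were Ccne1 (0.47), Mcm3 (0.41), Pcna (0.66), Rrm1 (0.74) and Tyms (0.62), all of S phase entry, replication or nucleotide supply. When limma weighted each array by its scatter, that replicate received the lowest weight of the 18, at 0.405, and 17 members were called, 13 higher and 4 lower, against 12.7% and 13.7% of all probe sets. Which of the 3 arrays is nearer to the response of such cultures cannot be told from 3 arrays.

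Tyms, thymidylate synthase, was the member called between doses. At 72 h its log2 values were 5.81, 5.47 and 5.33 with DMSO, 5.04, 5.36 and 4.79 with 30 µM and 5.73, 6.28 and 6.03 with 100 µM, and at 24 h they were 5.16, 4.69 and 5.07, then 5.14, 5.06 and 5.23, then 5.60, 5.12 and 5.20. The doses at 72 h did not overlap with each other, and the DMSO arrays overlapped with both. The difference of 100 from 30 µM was 0.95 ± 0.18 (limma, adjusted p = 0.011), and it was lost without replicate 3 of 30 µM or replicate 2 or 3 of 100 µM (adjusted p 0.055 to 0.084). Against DMSO the log2 changes were -0.48 and 0.48 (limma, adjusted p = 0.085 and 0.083). It was the only member of the 35 called between doses at 72 h, against 3.1% of all probe sets. Without replicate 1 of 100 µM 4 were called, against 8.19% of all probe sets. Without any of the 3 arrays just named 0 were called, against 0.454% to 1.08%. At 24 h 0 members and 0% of probe sets were called between doses in limma, with 1 member and 1421 probe sets at an unadjusted p under 0.05.

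Tk1, thymidine kinase, changed by 0.21, 0.18, 0.43 and 0.12 without a call. Of its 2 further probe sets 1 rose by 0.54 with 30 µM at 72 h (limma, adjusted p = 0.022) and the other changed by -0.26 to 0.26 without a call. The remaining helicase members, Mcm2, Mcm3, Mcm5 and Mcm7, changed by -0.39 to 0.21 over the 4 comparisons, and none was called. Kif11, the motor that separates the spindle poles, changed by 0.51 with 30 µM and 0.40 with 100 µM at 72 h (limma, adjusted p = 0.089 and 0.19).

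Time in culture moved 7 members in the vehicle cells, 3 up and 4 down between 24 and 72 h, against 11% and 10.7% of all probe sets. Cdk4 read 9.96, 9.54 and 9.71 at 24 h and 10.68, 10.35 and 10.08 at 72 h, a rise of 0.63 ± 0.16 (limma, adjusted p = 0.0089). Tyms rose by 0.56 ± 0.18 (limma, adjusted p = 0.034) and Ccna2 by 0.45 ± 0.11 (adjusted p = 0.0067), on the values given above. The calls of Cdk4 and Ccna2 passed whichever array was left out, and that of Tyms was lost without vehicle replicate 2 or 3 at 24 h or replicate 1 or 2 at 72 h (limma, adjusted p 0.054 to 0.15).

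The members that fell over time were 1 of the helicase and 3 of mitosis. Mcm3 read 5.46, 5.14 and 5.50 at 24 h, then 5.10, 4.72 and 4.69 at 72 h, and Aurkb, the kinase of the passenger complex, 3.92, 3.97 and 3.90 and then 3.81, 3.32 and 3.38. Plk1 read 5.63, 5.50 and 5.12 and then 5.18, 5.02 and 4.88, and Aurka 4.70, 4.63 and 5.05 and then 4.55, 4.43 and 4.38. For Mcm3, Aurkb and Aurka every array at 72 h was below every array at 24 h, and for Plk1 they overlapped. The log2 changes were -0.53 ± 0.15 (limma, adjusted p = 0.022), -0.43 ± 0.14 (0.039), -0.39 ± 0.13 (0.048) and -0.34 ± 0.11 (0.041), in that order.

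These 4 falls depended on the setting. With cyclic loess scaling none of them passed and 3 members were called, all higher, beside 11.7% of all probe sets higher and 8.1% lower. Without vehicle replicate 2 or 3 at 24 h 4 and 3 members were called over time, beside 17.5% and 16.2% of all probe sets. Without vehicle replicate 2 or 3 at 72 h they were 2 and 4, beside 15.1% and 17.3%. In these last 2 settings 0 members were lower, beside 6.87% and 7.73% of all probe sets. The difference between the 3′ and 5′ probe sets of beta-actin, a measure of RNA quality, was 1.31 with DMSO at 24 h and 0.70 at 72 h, and 0.85 with either dose at 72 h, on the log2 scale. For hexokinase it was 1.40 and 1.57 with DMSO at the 2 times, the other direction, and for Gapdh 0.289 and 0.168. The part of RNA quality, and of the cholangiocyte and stellate markers that changed over time, in these changes was not tested.

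Lists of other cell cycle genes place the members in a wider set. They were chosen with earlier results of these data known, so their shares are descriptions. Of 41 other S phase genes 35 were measured, and 3 rose with 30 µM and 2 with 100 µM at 24 h, 4 and 7 at 72 h, and 0 fell in any of the 4. The shares at 24 h, 8.57% and 5.71%, stood beside 3.35% and 3.06% of all probe sets higher, and 11.4% with 30 µM at 72 h beside 7.88%. The share at 100 µM and 72 h, 20%, stood beside 7.42% of all probe sets higher, and the median change of the list was 0.12 beside 0.02 over all probe sets. Among probe sets above the median level, tested alone, 13.1% were higher in that comparison. Left out 1 at a time, the arrays gave 4 to 8 calls in that comparison, with 4 without vehicle replicate 3 or without replicate 3 of the dose. At 24 h the counts were 1 to 2 with either dose, whichever array was left out.

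Cdc25a, the phosphatase that removes the inhibitory phosphate of Cdk2, read 6.11, 6.15 and 6.15 with DMSO at 72 h, 7.27, 7.45 and 7.45 with 30 µM and 7.18, 7.62 and 7.63 with 100 µM. The distance between the groups was larger than 1 on the log2 scale. It rose by 0.99 and 0.92 at 24 h and by 1.26 and 1.34 ± 0.14 at 72 h (limma, adjusted p 0.00057 or less), and all 4 calls passed whichever array was left out. Its other probe set changed by -0.08 to 0.04 without a call.

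Rpa3, the small subunit of the protein that covers single-stranded DNA, read 9.17, 9.34 and 9.20 with DMSO, 10.09, 10.39 and 10.27 with 30 µM and 9.77, 10.25 and 10.11 with 100 µM at 72 h. It rose by 1.02 ± 0.12 and 0.81 ± 0.12 there (limma, adjusted p 9.7e-06 and 0.00012). Slbp, which binds the hairpin of histone mRNA in S phase, rose by 0.92 and 1.44 ± 0.21 at 72 h (limma, adjusted p 0.0048 and 0.00012), with arrays of 6.19 to 7.41 against 5.46 to 5.63 for DMSO, while its 2 other probe sets changed by -0.06 to 0.17 and were not called. At 24 h Slbp was called at both doses (0.75 and 0.83) and Rpa3 with 30 µM (0.48), and these 3 calls were each lost without any of 4 or 5 of the 6 arrays. Dut, which keeps uracil out of DNA, was not called with EMD and rose with time by 0.88 ± 0.08 in DMSO (limma, adjusted p 2.2e-06), but its other probe set fell by 0.38 (adjusted p = 0.034).

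Of 58 other G2 and M genes 49 were measured. With EMD 1 rose and 1 fell with 30 µM and 2 rose and 1 fell with 100 µM at 24 h, and at 72 h 2 rose and 2 fell with 30 µM and 7 rose and 2 fell with 100 µM. At 24 h 4.08% and 6.12% of the list were thus called, near the 5.36% and 6.01% of all probe sets. At 72 h 8.16% of the list was called with 30 µM and 18.4% with 100 µM in either direction, beside 7.88% higher and 9.22% lower, and 7.42% higher and 9.68% lower, over all probe sets. At 100 µM and 72 h 4 to 9 genes of this list were called when 1 array was left out, with 4 without vehicle replicate 1 or 2 or replicate 2 of the dose and 5 without its replicate 3. With 30 µM at 72 h 2 were called without vehicle replicate 1, and at 24 h 1 to 2 with either dose. In DMSO 2 rose and 7 fell over time, 18.4% of the list, beside 11% higher and 10.7% lower over all probe sets.

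Spc24, a subunit of the Ndc80 complex that ties microtubules to the kinetochore, made the largest change among the 4 lists of other cycle and growth genes in the EMD comparisons. Its single probe set read 4.86, 5.52 and 5.42 with DMSO at 24 h, 6.88, 7.71 and 7.24 with 30 µM and 7.03, 7.67 and 7.15 with 100 µM. At 72 h the values were 4.59, 4.26 and 4.54 with DMSO, 7.74, 8.38 and 8.30 with 30 µM and 7.79, 7.42 and 7.38 with 100 µM. No EMD array came near the vehicle arrays. The rise at 24 h was 2.01 with 30 µM and 2.02 with 100 µM, and at 72 h 3.68 and 3.06 (SE 0.23, limma, adjusted p 2.3e-05 or less), and it passed whichever array was left out. Nuf2, of the same complex, rose by 0.45 with 100 µM at 72 h (limma, adjusted p = 0.048).

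Aspm, a spindle pole protein, changed the other way, by -0.70 and -0.69 ± 0.17 at 72 h (limma, adjusted p = 0.0081 and 0.0092), the latter call being lost without replicate 2 of 100 µM (adjusted p = 0.058). Smc2, a condensin subunit, fell by 0.79 with 30 µM at 72 h (limma, adjusted p = 0.030), a call lost without vehicle replicate 1 or any array of the dose (adjusted p up to 0.15). Cks2, which binds Cdk1, was not called with EMD and fell by 1.55 over time in DMSO (SE 0.36, limma's adjusted p = 0.0060).

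**Figure D4:**
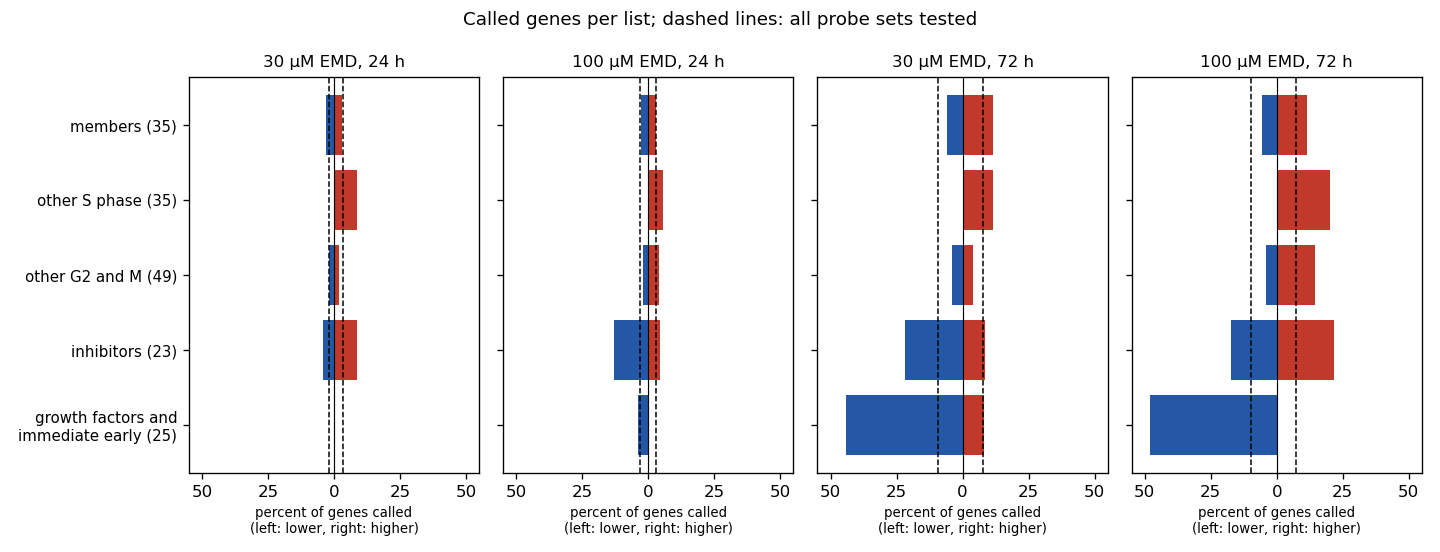
Bars give the percent of each list's measured genes (number in brackets) called higher, to the right, or lower, to the left, in the 4 comparisons with DMSO, and dashed lines give the same over all 31042 probe sets. The members lie near the dashed lines at 24 h, S phase genes extend only to the right, and growth factor and immediate early genes extend to the left at 72 h, where 11 and 12 of 25 were lower. The lists were chosen with earlier results of these data known.

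Among the genes that carry or answer growth signals, 52% were called with 30 µM and 48% with 100 µM at 72 h, most of them lower. This list too was chosen with earlier results of these data known. Its shares describe the list and are no independent support. Of 25 growth factors, receptors and immediate early genes, all measured, 0 and 1 were lower at 24 h, 11 were lower and 2 higher with 30 µM at 72 h, and 12 were lower and 0 higher with 100 µM. Over all probe sets 9.22% and 9.68% were lower there, and among probe sets above the median level, tested alone, 17.5% and 18.3%. Among the 11 hepatocyte markers the share called was similar, 54.5% and 45.5%, with 5 lower and 1 higher with 30 µM and 5 lower with 100 µM. The median log2 change of the growth signal genes at 72 h was -0.33 and -0.31. Left out 1 at a time, the arrays gave 9 to 13 and 10 to 12 calls there.

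Met, the receptor of hepatocyte growth factor, read 5.40, 5.19 and 5.13 in DMSO at 24 h and 7.18, 7.42 and 7.54 at 72 h, a rise of 2.14 ± 0.15 over time (limma, adjusted p 1.3e-07). With EMD at 72 h it read 6.20, 6.33 and 6.58 at 30 µM and 6.52, 6.34 and 6.38 at 100 µM, with changes of -1.01 and -0.97 (SE 0.15, limma's adjusted p = 0.00013 and 0.00022). EMD arrays at 72 h thus stood between the vehicle levels of the 2 times. Egfr, the receptor of epidermal growth factor, changed by -1.05 and -1.17 (limma, adjusted p 0.00047 and 0.00020). Among its ligands Btc changed by -0.98 and -1.09 and Hbegf by -0.40 and -0.49, and values of other ligands are not given here.

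The immediate early genes Ier2 and Ier3 and the transcription factors Jun, Junb, Atf3 and Egr1 fell with Myc. Ier2 read 8.80, 8.87 and 8.39 with DMSO at 72 h, 7.53, 7.52 and 7.63 with 30 µM and 7.39, 6.9955 and 7.41 with 100 µM, with changes of -1.12 and -1.42 ± 0.15 (limma, adjusted p 5.3e-05 and 5.7e-06). Jun changed by -0.93 and -1.13, Junb by -1.03 and -1.04, Atf3 by -1.11 and -0.87, and Ier3 by -1.65 and -1.39. Egr1 read 9.67, 9.13 and 8.11 with DMSO at 72 h against 6.07 to 6.79 at 24 h, and 8.13, 6.76 and 6.24 with 30 µM and 7.86, 5.66 and 5.95 with 100 µM. Its change was -1.93 ± 0.53 (limma, adjusted p = 0.017) and -2.48 ± 0.53 (0.0033), and the first call was lost without vehicle replicate 1 or 2 or replicate 2 or 3 of the dose (adjusted p up to 0.099).

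Of 24 genes that hold the cycle back, 23 were measured, and calls were made in both directions. At 24 h 2 rose and 1 fell with 30 µM and 1 rose and 3 fell with 100 µM, and at 72 h 2 rose and 5 fell with 30 µM and 5 rose and 4 fell with 100 µM. At 24 h 13% and 17.4% of the list were thus called, beside 5.36% and 6.01% of all probe sets in either direction. At 72 h 30.4% and 39.1% of the list were called, beside 7.88% higher and 9.22% lower, and 7.42% and 9.68%, over all probe sets. Among probe sets above the median level, tested alone, 11.7% and 13.2% were called at 24 h and 31.2% and 31.4% at 72 h. The share of the list with 30 µM at 72 h was thus no higher than among these brighter probe sets. Rb1, the retinoblastoma protein that holds E2F, read 6.26, 6.02 and 6.37 with DMSO at 72 h, 7.63, 7.82 and 7.75 with 30 µM and 7.59, 7.33 and 7.18 with 100 µM. The rise was 1.52 and 1.15 ± 0.12 (limma, adjusted p 1.7e-07 and 4.5e-06), and at 24 h the change was 0.37 and 0.21 with no call. Both calls passed whichever array was left out. Over the list, 6 to 9 genes were called at 72 h with 1 array left out, and 1 to 4 with 30 µM and 1 to 3 with 100 µM at 24 h.

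Other inhibitors fell at 72 h. Mxd4, which competes with Myc for Max, changed by -0.82 and -0.91 ± 0.14 (limma, adjusted p 0.00060 and 0.00027), and Cdkn1b, the inhibitor p27 of cyclin E and Cdk2, by -0.52 and -0.32 (adjusted p 0.00084 and 0.027). Btg3, which slows growth, changed by -1.06 and -0.57 ± 0.19 (limma, adjusted p 0.00067 and 0.046), the second call being lost without vehicle replicate 1 or 2 or replicate 2 or 3 of the dose. Wee1, the kinase that puts the inhibitory phosphate on Cdk1 and Cdk2, fell over time in DMSO by 0.89 (limma, adjusted p = 0.020, lost without vehicle replicate 1 or 3 at 24 h or 2 at 72 h). The brighter probe set of Wee1 was not called with EMD, and its other probe set was lower in all 4 comparisons, with changes of -0.89 to -0.60 (limma, adjusted p 0.0045 to 0.027). Tob1, an antiproliferative protein, was higher in all 4, by 0.53 to 0.69.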

How the data were processed

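RNA of cultured rat hepatocytes was hybridised to 18 Affymetrix rat genome arrays, 3 in each of 6 groups of dose and time. The authors made the deposited log2 values with RMA, which corrects background, quantile normalises the arrays and summarises each probe set, and the software version was not given in the sources used here. RMA compresses differences of dim probe sets and gives no detection call, so the number of arrays limits the precision, and the median standard error of a group difference was 0.116. The 57 control probe sets were left out. Genes were named through the platform annotation, in which 20826 of the 31042 remaining probe sets carried 1 symbol, 436 several and 9780 none.

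All 18 arrays were fitted with 6 group means in limma 3.58.1 (R 4.3.3; lmFit, eBayes), with Benjamini-Hochberg adjustment over 31042 probe sets and a threshold of 0.05. Only the fitting step was tested on simulated data. The members and lists were chosen with earlier results of these data known. All members were described by role, arrays were given for Mki67, Ccnd1, Myc, Pcna and Cdk1 and for called members (at most 4 per comparison and direction), and at most 4 called genes of each other list were named by size of change; other genes were chosen after their values were seen, among them E2f1, Rrm1, Nuf2, Tob1, Cdkn1b, Egfr and Jun. Alternatives were cyclic loess, only probe sets above the median, only the arrays compared, the replicate block, an intensity trend with robust moderation, array weights, the mean of a gene's probe sets, and leaving out each array. Motifs were searched as exact letters on both strands of RefSeq promoters (GRCr8).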

Additional observations from a re-analysis of the deposited data

Results flagged for a closer look

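For some genes the effect of EMD differed between 24 and 72 h by a test of the change itself (limma, adjusted p over all probe sets). For Rb1 the effect rose by 1.15 on the log2 scale with 30 µM, from 0.37 to 1.52 (adjusted p = 0.0043), and by 0.94 with 100 µM, from 0.21 to 1.15 (adjusted p = 0.019). For Spc24 it rose by 1.66 with 30 µM, from 2.01 to 3.68 (adjusted p = 0.023). The dimmer probe set of Cdk2 gave a rise of 0.91 with 100 µM, from 0.41 to 1.31 (adjusted p = 0.046), and the probe set that stood for Cdk2 was not called in this test.

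Of the 25 growth signal genes 3 were lower in this test with 30 µM and 1 with 100 µM, beside 0.941% and 0.693% of all probe sets called in either direction, and the median of the list with 30 µM was -0.02. For Jun the probe set that stood for the gene changed by -0.69 with 30 µM (adjusted p = 0.022) and by -0.81 with 100 µM (adjusted p = 0.011), and its 2 other probe sets by -1.02 (adjusted p = 0.014) and -0.74 (adjusted p = 0.032) with 100 µM. For Ier2 the change was -0.96 with 30 µM, from -0.16 to -1.12 (adjusted p = 0.043). For Btc, a ligand of the epidermal growth factor receptor, it was -0.97 with 30 µM, from -0.00 to -0.98 (adjusted p = 0.040).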

How the results depend on the processing

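No called value changed sign under any alternative run. Of the values of single genes called in the main fit or in the alternative, 232 kept their call, 71 lost it and 71 gained one. Of 3988 recomputed values called in neither, 300 had the other sign. Members called with 30 µM at 24 h were 1 with an intensity trend and robust moderation and 1 with only the arrays compared, against 2. Over all probe sets the shares called were 5.16% and 4.09%, against 5.36% in the main fit. With 30 µM at 72 h they were 3 among probe sets above the median level, where 18 members could be tested, and 3 with only the arrays compared, against 6. All probe sets tested gave 31.2% and 14.4% in these settings, against 17.1%. With 100 µM at 72 h array weights gave 17 against 6, beside 26.4% of all probe sets against 17.1%. Between doses at 72 h, against 1, they were 2 above the median level, 4 with array weights and 0 with only the arrays compared. The shares of all probe sets tested were 7.11%, 10.7% and 0.454%, against 3.1%. Over time in DMSO, against 7, cyclic loess gave 3, the level filter 3 and only the arrays compared 2. There 19.8%, 33.1% and 12.9% of all probe sets tested were called, against 21.7%. For the change of the effect from 24 to 72 h, against 0, array weights gave 1 with 30 µM and 3 with 100 µM, beside 2.06% and 3.51% of all probe sets.

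Leaving out 1 array gave 1 to 2 called members with either dose at 24 h, 3 to 6 with 30 µM (3 without its replicate 3) and 5 to 11 with 100 µM at 72 h, 0 between doses at 24 h and 0 to 4 at 72 h, 2 to 7 over time in DMSO, and 0 to 2 and 0 to 1 for the change of the effect with 30 and 100 µM. Of all probe sets these runs called 3.31% to 4.57% with 30 µM and 3.89% to 5.17% with 100 µM at 24 h. At 72 h the shares were 12.4% to 16% and 11.8% to 19.6%. Between doses at 72 h they were 0.454% to 8.19%, and over time in DMSO 15.1% to 18.4%. For the change of the effect they were 0.396% to 1.53% and 0.184% to 2.58%.

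Of 18 pairs of arrays with the same replicate number and time, 16 correlated over 0.1 in their deviations from the group means (0.0058 to 0.63, median 0.37, against a median of -0.22 for different numbers). Arrays of the same number thus tended to deviate together. No label ties a number to an animal, so the block was kept as an alternative, and the main tests leave this pairing out. With the replicate block, 2 members were called between doses at 72 h and 2 in each of the changes of the effect, Ccnd1 (-1.46, adjusted p = 0.013) and Cdk2 (0.66, 0.028) with 30 µM and Myc (-0.74, 0.041) and Ccnd1 (-1.29, 0.032) with 100 µM, and no call was lost. It also called Cdk2 with 30 µM (0.0085) and Ccnd1 with 100 µM (0.019) at 24 h. Of all probe sets the block called 5.23% between doses at 72 h, and 2.98% and 1.72% in the changes of the effect. The cause of these differences was not tested.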
